A study of Oryza sativa Japonica Group with 6 samples.

Results

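Heat shock transcription factors (HSFs) are the DNA-binding proteins that switch on chaperone genes, and 10 HSF genes of rice were followed here in endosperm of an nf-yc11 mutant and of wild type. The 10 were taken by gene ID from a table of 93655 features, and 36189 of these had a value above 0 somewhere. They were HsfA1 (OS03G0854500), HsfA2a (OS03G0745000), HsfA2c (OS10G0419300), HsfA2d (OS03G0161900), HsfA2e (OS03G0795900), HsfA4b (OS01G0749300), HsfA4d (OS05G0530400), HsfB2b (OS08G0546800), HsfB2c (OS09G0526600) and HsfC1a (OS01G0625300). All 10 symbols were found in a RefSeq gene table, on the chromosome that the ID gives and in the same order along it as the other listed genes.

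Endosperm is the starch-storing tissue of the grain. It was sampled 7 days after pollination, with 3 libraries labelled nf-yc11 and 3 labelled wild type (WT), and ZH11, a japonica rice cultivar, is given as the background in the title of the series. NF-YC genes encode a subunit of NF-Y, a trimeric factor that binds CCAAT boxes. The labels state neither the mutated locus and allele, nor whether replicates came from separate plants, so p-values below measure only the spread between these libraries.

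Plants carry HSFs in 3 classes. Class A factors have an activation domain and drive the transcription of heat shock proteins. In tomato and Arabidopsis, class A1 factors start the response, and class A2 factors are themselves induced by heat and prolong it. Class B factors lack that domain, and in Arabidopsis HsfB1 and HsfB2b repress heat-induced genes when the heat has passed. Class C factors also lack it. All bind heat shock elements, repeats of the unit GAA in alternating orientation.

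Values were FPKM, reads relative to feature length and library total, so levels of different genes can be set side by side. The library totals behind them, worked out from the values, were 15735968 to 16989039 reads in nf-yc11 and 14593215 to 21984785 in WT. On a feature of 1500 bases, a floor of 3 reads equalled 0.091 to 0.137 FPKM; such floors cover counting error alone. Across features, Pearson r was 0.981 to 0.983 for libraries of the same group and 0.948 to 0.955 for libraries of different groups. The gene named in the labels, NF-YC11 (OS05G0304800), averaged 110 ± 3.35 FPKM in nf-yc11 libraries and 126 ± 3.07 FPKM in WT (SD, n = 3 each), 1.15-fold lower. NF-YC12 (OS10G0191900), a related gene that the labels do not name, averaged 192 ± 1.41 FPKM in nf-yc11 libraries and 755 ± 12.1 FPKM in WT, 3.93-fold lower. Both pairings of symbol and ID rest on general knowledge, as neither symbol was found in the RefSeq table. The transcript levels therefore do not settle which of these genes is mutated, and nf-yc11 below means the libraries so labelled. All 7 endosperm markers, storage protein and starch genes among them, were present at 86.0 FPKM or more in every library. Their summed level was 25746 to 26037 FPKM in nf-yc11 and 30557 to 31346 FPKM in WT, and storage protein genes made up most of it. By the test described below, 6 of 7 were called lower in nf-yc11. Of all features tested, 29.8% were called higher and 19.3% lower. Of 4 embryo and aleurone markers, 1 was called higher and 2 lower (sums of 5157 to 5555 and 4514 to 4861 FPKM). Of 2 green pericarp markers 1 was called lower (1356 to 1496 and 1538 to 1555 FPKM). None of these markers was at 0. The part of tissue makeup in the results below was not tested, and in bulk RNA fewer cells of a type and less RNA per cell cannot be told apart.

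HsfB2b, HsfB2c and HsfA2a rose in nf-yc11 endosperm, by 1.86-fold, 2.07-fold and 2.13-fold in mean FPKM. HsfA1 and HsfA2e, the most abundant of the 10, were 1.15-fold and 1.06-fold lower in nf-yc11 and did not pass the test. Of the 10 genes, 8 reached the mean of 1 FPKM over the 6 libraries that was required for testing, and 3 of the 8 were called, all higher. A call was an adjusted p under 0.05 with limma on log2(FPKM + 1), adjusted over all 22093 features tested. Of these features 49.1% were called, 29.8% higher and 19.3% lower, so the 37.5% of the 8 HSF genes that were called is no more than the background. The groups did not overlap for 4 genes higher and 2 genes lower in nf-yc11, where 35.3% and 24.4% of all features tested had no overlap in those directions. With size factors or quantile normalization the calls were 3 higher and 2 lower, HsfA1 and HsfA2e being added. That was 62.5% of the 8, where 10733 and 10676 of the 22093 features were called under those settings. Without rescaling, the median log2 change of the 8 genes was 0.22, against 0.06 over all features tested. HsfA2a reached the required mean through its nf-yc11 libraries alone, since it averaged under 1 FPKM in WT, so the count of genes called is a description of these libraries only.

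**Figure D1:**
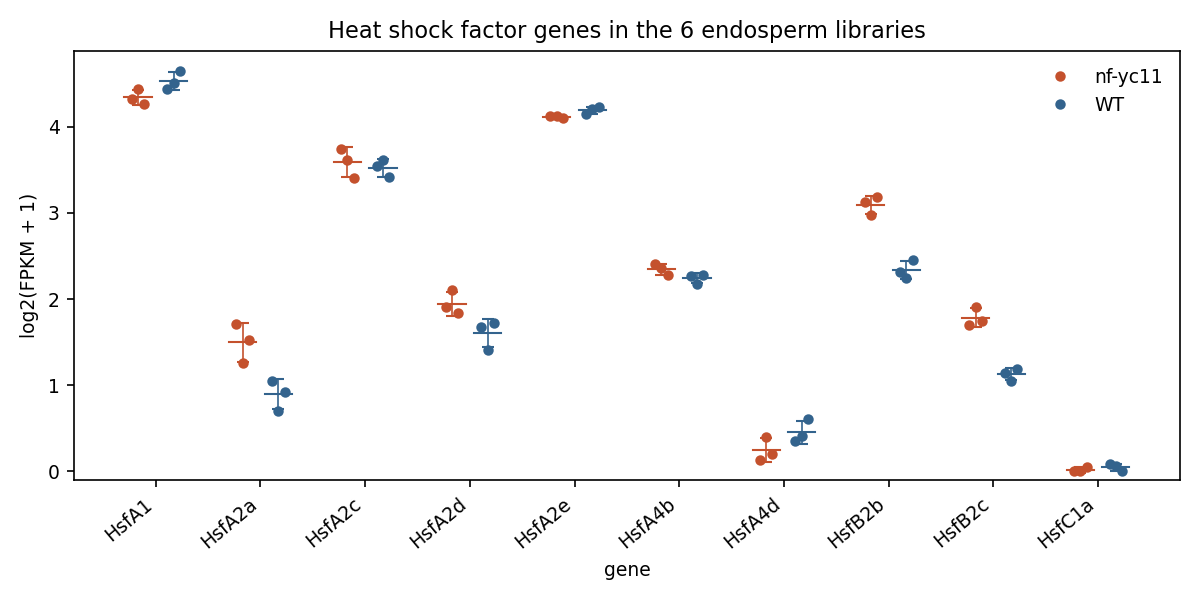
Level of each of the 10 HSF genes as log2(FPKM + 1) on the vertical axis, with a point per library, a horizontal line at the mean of each group and bars of 1 SD (n = 3, nf-yc11 in red and WT in blue). The nf-yc11 points of HsfB2b, HsfB2c and HsfA2a all lie above the WT points, and those of HsfA2c and HsfA4b overlap with WT.

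HsfB2b, of the repressor class and known in rice as a negative regulator of drought and salt tolerance, showed the largest change of the 10 on the log2(FPKM + 1) scale, whereas HsfA2a and HsfB2c, which are lower in level, had larger ratios of means. It had 7.72, 6.86 and 8.06 FPKM in the nf-yc11 libraries, against 3.98, 3.72 and 4.48 FPKM in WT. Every nf-yc11 library was well above every WT library. The ratio of means was 1.86-fold, and the log2 change of 0.76 ± 0.09 (SE) passed the test (adjusted p = 0.000611, limma). It rested on 164 to 205 reads per nf-yc11 library and 87 to 131 per WT library. Among features tested, 94.4% had a lower log2 change than HsfB2b.

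HsfB2c, the other B2 gene among the 10, also rose and was lower in level. It was at 2.25, 2.75 and 2.35 FPKM in nf-yc11 and at 1.20, 1.07 and 1.28 FPKM in WT, so the groups did not overlap. The ratio of means was 2.07-fold (log2 change 0.66 ± 0.11 SE, adjusted p = 0.00264, limma), from 55 to 68 reads per nf-yc11 library and 26 to 41 per WT library. On the log2(FPKM + 1) scale the change of so low a gene is understated: with a pseudocount of 0.1 it was 0.99. Between libraries of a group the measured spread of HsfB2c was no larger than counting gives, though a spread over 3 libraries is imprecise. Its coefficient of variation was 10.7% in nf-yc11 and 8.83% in WT, where counting alone would give 12.8% and 18.01%.

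HsfB2b and HsfB2c together made up 14.9%, 14.4% and 16.6% of the summed FPKM of the 10 genes in the nf-yc11 libraries, against 8.54%, 7.82% and 8.91% in WT. HsfA1 made up 28.3%, 30.7% and 29.0% in nf-yc11, against 34.1%, 35.3% and 37.2% in WT. These shares are tied to each other, since a gain of any class lowers the rest. The class A2 share was 48.9% ± 1.26 in nf-yc11 and 49.4% ± 1.91 in WT (SD, n = 3), a difference smaller than the spread. HsfA4b and HsfA4d made up 6.51% ± 0.15 in nf-yc11 and 6.59% ± 0.283 in WT. The summed FPKM of all 10 was 67.1, 66.9 and 62.8 in nf-yc11, against 60.6, 61.3 and 64.7 in WT. These sums overlapped, and their difference of 3.41 FPKM gave p = 0.2 in an exact two-sided permutation test, where 3 against 3 libraries cannot go below 0.1. With size factors the difference was 0.351 FPKM and with quantile normalization 0.354 FPKM.

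**Figure D2:**
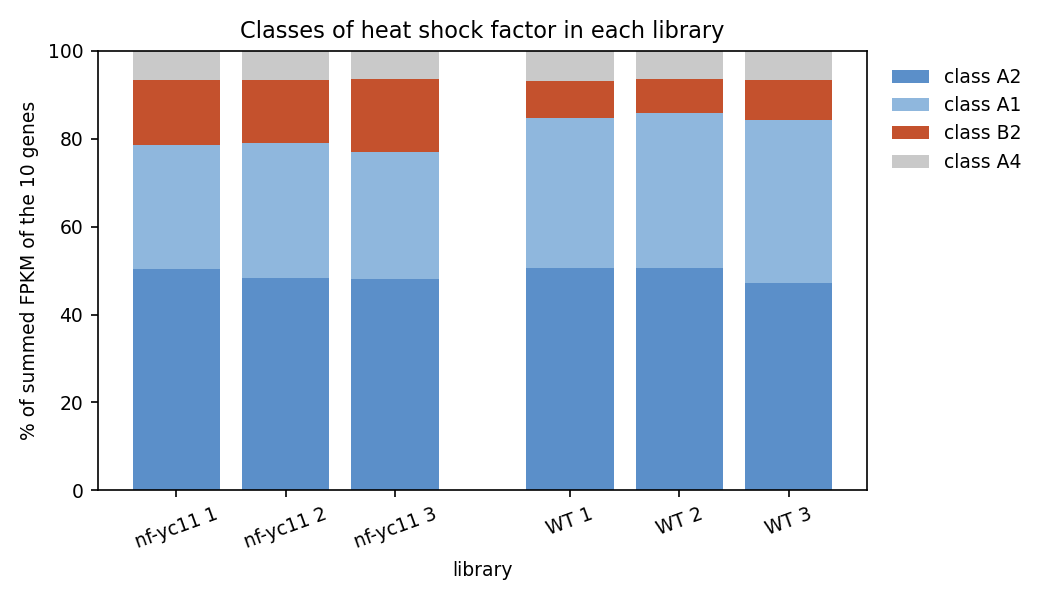
Share of each HSF class in the summed FPKM of the 10 genes, in percent on the vertical axis, with a bar per library and nf-yc11 on the left. HsfC1a is left out because it takes under 0.1% in every library. The B2 band takes 14.4% to 16.6% in nf-yc11 and 7.82% to 8.91% in WT.

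Class A1 is a single gene in rice. HsfA1 had 19.0, 20.6 and 18.2 FPKM in nf-yc11, against 20.7, 21.7 and 24.06 FPKM in WT. All nf-yc11 libraries were below all WT libraries, but the highest of nf-yc11 and the lowest of WT were next to each other, at 20.6 and 20.7 FPKM. The log2 change of −0.19 (95% interval −0.36 to −0.02) did not pass (adjusted p = 0.0634, limma). With size factors it was −0.26 and passed (adjusted p = 0.0235, limma), and so it did under quantile normalization at −0.27 (adjusted p = 0.0161). It also passed with voom (adjusted p = 0.0263, limma), when a mean of 5 FPKM was required (0.0485) and without nf-yc11 replicate 2 (0.0443).

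Of the 4 class A2 genes among the 10, HsfA2a was called and HsfA2c, HsfA2d and HsfA2e were not. HsfA2a had 2.27, 1.38 and 1.88 FPKM in nf-yc11, against 1.07, 0.632 and 0.901 FPKM in WT. The groups did not overlap, and the ratio of means was 2.13-fold (log2 change 0.60 ± 0.16 SE, adjusted p = 0.0206, limma). Since HsfA2a reached the required mean through its nf-yc11 libraries alone, that filter favoured a rise. With no filter on low values the adjusted p was 0.034 (limma). This gene was read 47 to 76 times per nf-yc11 library and 21 to 50 times per WT library. It varied widely within groups, with a coefficient of variation of 24.0% in nf-yc11 and 25.4% in WT, where counting alone would give 12.8% and 18.6%. Its call ended when nf-yc11 replicate 1 (adjusted p = 0.063, limma), nf-yc11 replicate 3 (0.0607) or WT replicate 2 (0.0622) was left out.

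HsfA2d, which in rice is known for heat-dependent splice forms, had 2.74, 3.28 and 2.57 FPKM in nf-yc11, against 2.20, 1.66 and 2.29 FPKM in WT. All nf-yc11 libraries were above all WT libraries. The log2 change of 0.34 (95% interval 0.04 to 0.64) did not pass (adjusted p = 0.0589, limma), but did without the variance trend (adjusted p = 0.0463) and with voom on recovered reads (log2 change 0.47, adjusted p = 0.0167). In RefSeq the record of HSFA2D also carries names of the gene ARD2, and that of HSFA2C the name ARD1. The next lower ID to HsfA2d, OS03G0161800, was at 54.2 ± 2.02 FPKM in nf-yc11 and 60.5 ± 1.72 FPKM in WT (SD, n = 3), and fell (log2 change −0.16, adjusted p = 0.0192, limma). The next higher ID to HsfA2c, OS10G0419400, averaged 6.51 ± 1.08 FPKM in nf-yc11 and 6.01 ± 0.932 FPKM in WT, with no call. Strandedness of the libraries is not given, and whether reads were shared between such neighbours was not tested.

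HsfA2c, reported in rice to act on the promoter of the disaggregase gene HSP101, had 12.4, 11.2 and 9.56 FPKM in nf-yc11, against 10.6, 11.3 and 9.64 FPKM in WT. These ranges overlapped almost wholly. The log2 change was 0.06 (95% interval −0.18 to 0.30, adjusted p = 0.634, limma), and with size factors or without nf-yc11 replicate 1 it was at or just below 0. HsfA2e, the most abundant of the A2 genes, had 16.4, 16.4 and 16.2 FPKM in nf-yc11, against 16.7, 17.39 and 17.71 FPKM in WT. The groups did not overlap but were close. The log2 change of −0.08 (95% interval −0.18 to 0.03) did not pass (adjusted p = 0.195, limma), except with size factors (−0.14, adjusted p = 0.0349) and quantile normalization (−0.15, adjusted p = 0.029).

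Among class A4, HsfA4b had 4.30, 4.12 and 3.84 FPKM in nf-yc11, against 3.82, 3.51 and 3.84 FPKM in WT. The lowest nf-yc11 library was level with the highest WT library. Its log2 change was 0.11 (95% interval −0.08 to 0.29, adjusted p = 0.297, limma). HsfA4d, known in rice as the spotted leaf gene Spl7, was barely read. It had 0.0973, 0.320 and 0.150 FPKM in nf-yc11, from 3, 10 and 5 reads, and 0.278, 0.327 and 0.524 FPKM in WT, from 12, 10 and 15 reads. The groups overlapped, the gene was under the required mean, and with no filter on low values it did not pass (log2 change −0.21, adjusted p = 0.19, limma).

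HsfC1a was the only class C gene among the 10 and was near the limit of detection. It was given 0, 0 and 1 read in nf-yc11 and 2, 1 and 0 reads in WT. All these values lay under the floor of 3 reads, which for this gene was 0.112 to 0.121 FPKM in nf-yc11 and 0.0869 to 0.131 FPKM in WT. No difference was detectable at this depth.

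The order of the 10 genes by mean FPKM was the same in nf-yc11 and in WT: HsfA1, HsfA2e, HsfA2c, HsfB2b, HsfA4b, HsfA2d, HsfB2c, HsfA2a, HsfA4d and HsfC1a. The ranges of neighbours in that order overlapped in 3 cases. In nf-yc11 HsfB2c overlapped with HsfA2d above it and with HsfA2a below it. In WT HsfB2b (3.72 to 4.48 FPKM) overlapped with HsfA4b (3.51 to 3.84 FPKM), whereas in nf-yc11 HsfB2b (6.86 to 8.06 FPKM) stood clear of it (3.84 to 4.30 FPKM). HsfB2c and HsfA2a did not overlap in WT, but their nearest libraries were both at 1.07 FPKM, so they were not set apart beyond their spread. HsfA4d and HsfC1a did not overlap in nf-yc11, but they rested on few reads, 3, 10 and 5 for HsfA4d and 0, 0 and 1 for HsfC1a. By mean level HsfA1 was above 84.6% of all features read in any library, HsfB2b above 65.0% and HsfA2a above 43.2%.

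Rice has further HSF genes, and 15 were listed beside the 10. Of these, 9 were tested: 3 were higher in nf-yc11, 2 were lower and 4 were not called. Their median log2 change was 0.115, against 0.06 over all features tested. Over the 25 genes, 17 were tested and 8 called (47.1%), close to the 49.1% of all features. The summed level of the 25 was 171, 166 and 164 FPKM in nf-yc11, against 147, 147 and 153 FPKM in WT, so these sums did not overlap. HsfA3 (means of 22.1 and 12.5 FPKM) and HsfB4d (12.2 and 6.15 FPKM) differed most in FPKM and made up most of that difference. The sum over the 25 was neither tested nor rescaled between libraries. HsfA3 rose 1.76-fold, to 22.0, 22.1 and 22.0 FPKM in nf-yc11, against 12.2, 12.4 and 13.0 FPKM in WT (log2 change 0.77 ± 0.05 SE, adjusted p = 3.83e-05, limma). In Arabidopsis, HsfA3 is a target of DREB2A, which acts there with an NF-Y trimer, and no such link was tested here. The rice gene DREB2A was at 5.62 ± 0.751 FPKM in nf-yc11 and 5.53 ± 0.139 FPKM in WT (SD, n = 3), and DREB2B at 28.3 ± 0.911 and 28.5 ± 1.16 FPKM. Neither passed, and the sign of their small differences turned under some alternatives (log2 changes of −0.04 to 0.11 for DREB2A and −0.10 to 0.02 for DREB2B).

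HsfB4d, again of class B, rose 1.99-fold, with 12.0, 12.7 and 12.0 FPKM in nf-yc11 and 5.12, 6.94 and 6.40 FPKM in WT (log2 change 0.90 ± 0.10 SE, adjusted p = 0.000507, limma). Its symbol was not found in the gene table and rests on general knowledge of rice genes. HsfA7 (HSFA6B in RefSeq) fell 1.24-fold, to 6.65 ± 0.256 FPKM in nf-yc11, against 8.26 ± 0.792 FPKM in WT (adjusted p = 0.0252, limma). Its call was lost on leaving out WT replicate 1 (adjusted p = 0.0672, limma) and likewise the first (0.0645) or second (0.0695) nf-yc11 library. HsfC1b, the most abundant of the 25 and known in rice from salt stress, was at 29.5 ± 0.407 FPKM in nf-yc11 and 29.4 ± 1.42 FPKM in WT and did not pass (adjusted p = 0.927, limma). HsfB1 and HsfC2b, named after their values were seen, were also called. HsfB1 rose to 2.21 ± 0.419 FPKM, against 1.37 ± 0.195 FPKM in WT (adjusted p = 0.0337, limma), and HsfC2b fell to 6.8 ± 1.06 FPKM, against 8.92 ± 0.379 FPKM (0.0264). HsfB1 was called in 6 of its 13 alternatives and HsfC2b in 8 of 14.

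All 4 class B genes that were tested, HsfB1, HsfB2b, HsfB2c and HsfB4d, rose in nf-yc11, a grouping made after the values were seen and therefore not tested. A further B2 gene, HsfB2a, was under the required mean, at 0.333 ± 0.15 FPKM in nf-yc11 and 0.215 ± 0.119 FPKM in WT, and its groups overlapped. Also under that mean was HsfB4b, at 1.2 ± 0.149 FPKM in nf-yc11 and 0.742 ± 0.145 FPKM in WT, without overlap. HsfB4c was higher without overlap too, at 0.281 ± 0.0207 and 0.066 ± 0.022 FPKM, but had 1 to 3 reads per WT library. HsfB4a was at 0 in every library. Outside class B, HsfA6 was also under the required mean. It was lower without overlap, at 0.187 ± 0.111 FPKM in nf-yc11 and 0.565 ± 0.0716 FPKM in WT. It had 2 to 5 reads per nf-yc11 library and 8 to 11 per WT library. HsfC2a, under that mean too, overlapped, at 0.253 ± 0.0978 and 0.126 ± 0.0936 FPKM. With no filter on low values, HsfA6 was called lower (adjusted p = 0.0179, limma) and HsfB4c higher (0.00832). HsfB4b (0.0615), HsfB2a (0.448) and HsfC2a (0.26) were not called. The 2 tested class C genes were HsfC1b and HsfC2b. Of the 11 tested class A genes, HsfA2a and HsfA3 rose, HsfA7 fell and 8 did not pass. Among the 8, HsfA2b and HsfA2d were higher without overlap, and HsfA1 and HsfA2e were lower without overlap. Of all features tested, 35.3% were higher and 24.4% lower without overlap. Over all features tested, 29.8% were called higher and 19.3% lower.

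**Figure D3:**
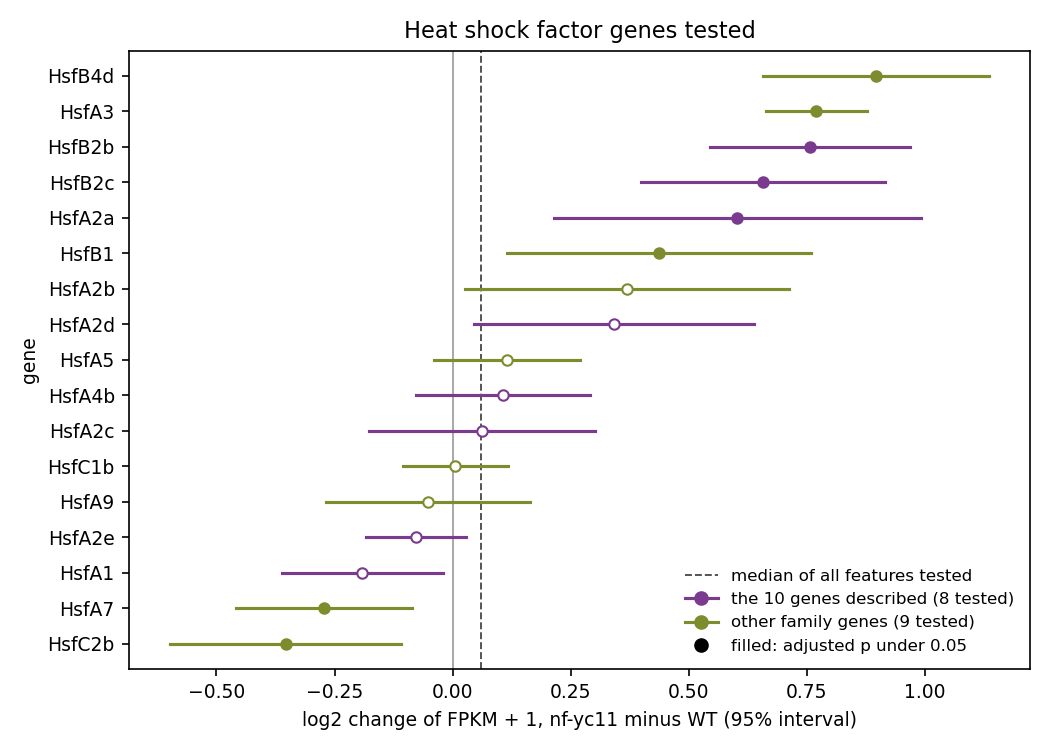
Log2 change of FPKM + 1, nf-yc11 minus WT, on the horizontal axis with its 95% interval, for the 17 HSF genes tested; purple marks genes among the 10 described and green the rest of the family, filled points have an adjusted p under 0.05, and the dashed line is the median of all features tested (0.06). HsfB4d, HsfA3, HsfB2b, HsfB2c and HsfA2a lie farthest to the right.

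Chaperone genes known as HSF targets, and genes of proteins that bind HSFs or act beside them, formed a list of 25. Of the 22 tested, 18 rose (81.8%, where 29.8% of all features were called higher), 0 fell and 4 were not called. Among the 18, the HSP90 gene OS04G0107900, reached the required mean through its nf-yc11 libraries alone, at 7.93 ± 0.962 FPKM in nf-yc11 and 0.712 ± 0.141 FPKM in WT, so these counts describe the genes that passed the filter. Those 22 genes had a median log2 change of 0.59, against 0.06 over all features. The list overlaps with heat shock genes whose rise was already known when it was written, so it gives no independent evidence of direction. The heat shock proteins bind unfolded proteins, and HSP70 and HSP90 also hold class A1 factors inactive in plants without heat stress. The most abundant, an HSP70 gene (OS11G0703900), rose 1.52-fold, to 1582, 1444 and 1527 FPKM in nf-yc11, against 1002, 986 and 1000.5 FPKM in WT. Another HSP70 gene, OS05G0460000, rose 3.56-fold, to 12.0 ± 0.634 FPKM in nf-yc11, against 3.39 ± 0.227 FPKM in WT. HSP70 genes have close copies, so how reads were split among them is uncertain.

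MBF1c, known in Arabidopsis as a coactivator needed for thermotolerance, had 247, 237 and 232 FPKM in nf-yc11, against 99.7, 100.8 and 99.3 FPKM in WT (2.39-fold, adjusted p = 2.39e-06, limma). The small heat shock protein gene HSP24.1 rose 3.07-fold (log2 change 1.58 ± 0.04 SE, adjusted p = 2.39e-06, limma). HSBP1 and HSBP2 encode proteins that bind HSF trimers and dampen the response. HSBP1 was at 51.1 ± 1.88 FPKM in nf-yc11 and 40.6 ± 1.47 FPKM in WT, and HSBP2 at 88.3 ± 5.29 and 70.5 ± 4.34 FPKM, both called. HSP101, the gene that HsfA2c is reported to act on, was at 19.6 ± 0.944 FPKM in nf-yc11 and 15.1 ± 0.57 FPKM in WT and was called. HSBP1, HSBP2, HSP101, DREB2A and DREB2B were named after their values were seen.

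**Figure D4:**
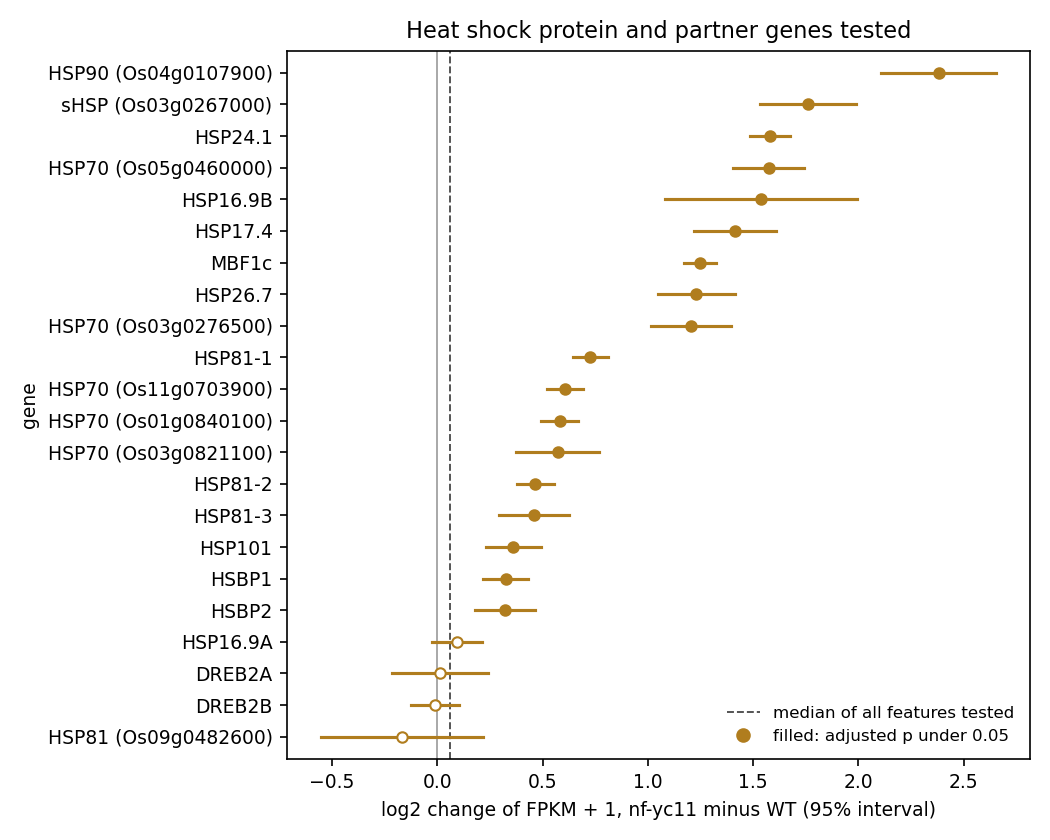
Log2 change of FPKM + 1, nf-yc11 minus WT, on the horizontal axis with its 95% interval, for the 22 heat shock protein and partner genes tested; filled points have an adjusted p under 0.05 and the dashed line is the median of all features tested (0.06). 18 points are filled, all to the right of 0, while HSP16.9A, DREB2A, DREB2B and an HSP81 gene are open.

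Among the 38 other listed genes with a mean of at least 1 FPKM, those whose log2 values most resembled HsfB2b across the 6 libraries were the HSP70 gene OS03G0276500 (Pearson r = 0.993), HSP81-2 (r = 0.99) and HSP26.7 (r = 0.987). With 6 libraries in 2 groups, such values mostly reflect the shared difference between groups, and they are given as a description. OS03G0276500 was at 19.4 ± 0.746 FPKM in nf-yc11 and 7.87 ± 0.873 FPKM in WT (SD, n = 3).

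**Figure D5:**
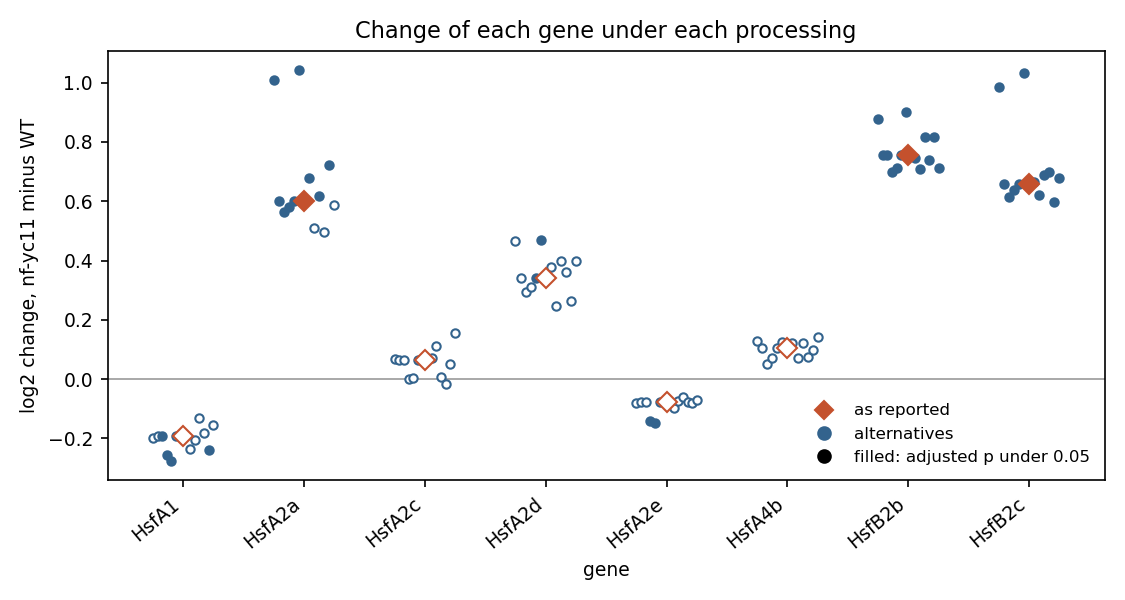
Log2 change of each of the 8 tested HSF genes, nf-yc11 minus WT, on the vertical axis; red diamonds give the values reported, blue circles the alternatives, and filled marks an adjusted p under 0.05. HsfB2b (0.70 to 0.90) and HsfB2c (0.60 to 1.03) are filled throughout, HsfA2a is open in 3 alternatives, and HsfA2c and HsfA4b are open in all.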

How the data were processed

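RNA from endosperm was sequenced in 3 nf-yc11 and 3 WT libraries, grouped by the titles in the labels. RNA was extracted with TRIzol, per the labels' protocols. The authors deposited a table of FPKM values, 1 column per library. The submitters' processing notes name CASAVA 1.7, HISAT2 2.0.5 and DESeq, without role or order. No source used here names the counting tool, build or annotation, and coordinates are left out.

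The test was limma 3.58.1 (R 4.3.3), applied to log2(FPKM + 1) values that were not rescaled between libraries, using its variance trend. It covered 22093 features whose mean reached 1 FPKM, with Benjamini-Hochberg adjustment. Whole reads, within 0.0001 of a whole number, were recovered for all 36189 features above 0 from the ratios between libraries, and gave read numbers and a voom fit. They summed to 99.7% of each library total. The totals were themselves sought near the sum of these reads, so this share is no check of the recovery. The recovery and the test were tested on simulated data. Python 3.11.15, numpy 2.4.6, pandas 2.3.3, scipy 1.17.1 and matplotlib 3.10.9 were also used.

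The members and lists were chosen with earlier results of these data known. Symbols were paired with IDs from general knowledge and compared with RefSeq assembly ASM3414082v1: 10 of the 10 HSF genes, 13 of 15 further HSF genes and 11 of 25 heat shock and partner genes were found in order. Of the 15 genes of the marker lists and label check, 10 were found, and NF-YC11 and NF-YC12 were not. Genes named by rule were the 10, NF-YC11 and NF-YC12, and the most abundant and the 3 with the smallest p of both gene lists. The 3 most like HsfB2b were named as well. Outside this rule are the genes said to be named after their values were seen. Also outside it are HsfA2b, HsfA6, HsfB2a, HsfB4a, HsfB4b, HsfB4c and HsfC2a. So are the HSP90 gene OS04G0107900, HSP16.9A, the HSP81 gene of a caption, and the neighbours OS03G0161800 and OS10G0419400. Marker lists are given as counts and sums. Promoter and protein sequences were not analysed here.

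Alternatives were a pseudocount of 0.1, no filter or a mean of 5 FPKM, size factors, quantile normalization, no variance trend, voom, the replicate number as a block, and each library left out.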

Additional observations from a re-analysis of the deposited data

How the results depend on the processing

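HsfB2b kept its direction and call in all 14 alternatives and HsfB2c in all 13 that could be fitted, since HsfB2c is under a mean of 5 FPKM. The number of the 8 HSF genes called was 3 (37.5%), and 5 (62.5%) with each of size factors, quantile normalization and voom. It was 4 without the variance trend, 3 with a replicate block and 2 to 4 when a library was left out. Of all 22093 features, 10842 were called, and 10733, 10676 and 11672 with size factors, quantile normalization and voom. Without the variance trend 10701 features were called, with the block 9948, and 9093 to 9669 when a library was left out. With at least 5 FPKM 4 of the HSF genes were tested and 2 called, where 8320 of 13548 features were called. Size factors and quantile normalization shifted the median over all features by -0.0574 and -0.0582 on the log2 scale, and the split of all calls, 6586 higher and 4256 lower, became 5522 and 5211 with size factors and 5403 and 5273 with quantile normalization. Of the 9 further HSF genes tested 5 were called, and 2 to 4 when a library was left out. The replicate block gave 4. Of the 22 heat shock and partner genes tested, 18 were called in each alternative that tested the same 22, the block included. The difference in summed HSF level was 3.41 FPKM and ranged from 2.62 to 4.8 when a library was left out.

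Among the 16 tested genes named by rule from the HSF and heat shock lists, and for NF-YC11 and NF-YC12, directions turned for HsfA2c and HsfC1b and no other, neither of them called. HsfA2c was at -4.96e-05 with size factors, and at -0.017 to 0.156 when a library was left out. HsfC1b was at -0.0609 with size factors and -0.0805 with quantile normalization, and at -0.0333 to 0.0299 when a library was left out. Same-numbered libraries deviated from their group means with r of -0.0505, 0.0042 and -0.0477. For libraries with different numbers r was -0.0569 to 0.109. No shared deviation by number was seen, but with 3 libraries per group these values cannot show whether the numbers pair the libraries. Why calls changed was not tested. HsfB2c, at 26 to 68 reads per library, had a measured spread no larger than counting gives, and that of HsfA2a was larger. With 3 libraries per group such spreads are imprecise, and they were not tested against counting. HsfA4d and HsfC1a could not be judged at this depth.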
